A study of Homo sapiens with 6 samples.

Results

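Major histocompatibility complex class II molecules are pairs of an alpha and a beta chain that display peptides on the cell surface to CD4+ T cells. The genes described here are those of the classical pairs HLA-DR (HLA-DRA, HLA-DRB1), HLA-DP (HLA-DPA1, HLA-DPB1) and HLA-DQ (HLA-DQA1, HLA-DQB1), the peptide exchange factor HLA-DM (HLA-DMA, HLA-DMB), the invariant chain CD74 and the transactivator CIITA. They were taken by gene symbol and are 10 genes of a table of 63236 rows. Their symbols stand on 61 rows, of which 10 match a gene of the primary assembly and 51 carry other identifiers for the same symbols, all of them at 0.

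FUJIOKA cells, a human acute myeloid leukaemia (AML) line, carried either a scrambled control shRNA (shNEG, 3 libraries) or an shRNA against SPINK2 (shSPINK2, 3 libraries). Both kinds of shRNA were delivered by lentivirus in the Tet-pLKO-puro vector, which doxycycline switches on, so the control cells share vector and inducer. The labels list 2 SPINK2 shRNAs without saying which a library holds, whereas the study's methods name 1, and nothing says that libraries came from separate cultures. The value used is the authors' mean of normalized read counts over all 6 libraries, which pools both groups, so no comparison of shSPINK2 with shNEG was made.

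Class II genes are normally switched on together in dendritic cells, B cells and part of the monocyte lineage. CIITA does not bind DNA itself but is recruited to a promoter by RFX, CREB and NF-Y proteins sitting on neighbouring elements, the X and Y boxes, and interferon gamma induces it through JAK kinases and IRF1. New alpha and beta chains assemble on CD74, which blocks the peptide groove until proteases of the endosome remove it, and HLA-DM then exchanges the last CD74 fragment for a peptide, held back by HLA-DO.

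The promoters of the members are shown first because they all belong to genes that CIITA is known to control, while the levels given afterwards ranged from no read to 7821 normalized counts. RefSeq promoters (build GRCh38.p14, 250 bases before to 50 after the start) were found for 8 of the 10 members, all but HLA-DRA and CIITA. The stretches below hold 60 bases each, 5′ to 3′ on the strand of the gene. Their distance from the RefSeq start differs, as with -141 to -82 for HLA-DPB1 and -87 to -28 for HLA-DRB1. Letters elsewhere in a promoter are not shown. The RefSeq start can differ from the outer gene bounds given further below. The stretches of HLA-DPA1, HLA-DQA1, HLA-DQB1 and HLA-DMA therefore lie inside those bounds. Capitals mark AGNAAC, the core letters used here for the X1 part of the X box (N is any base), and ATTGG, the core of the Y box, also where it reads CCAAT because it lies on the opposite strand.
CD74 (chr5:150412940-150412999, minus strand): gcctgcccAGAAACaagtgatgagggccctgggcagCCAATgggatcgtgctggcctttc
HLA-DRB1 (chr6:32589876-32589935, minus strand): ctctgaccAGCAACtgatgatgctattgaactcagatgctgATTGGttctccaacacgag
HLA-DPA1 (chr6:33073697-33073756, minus strand): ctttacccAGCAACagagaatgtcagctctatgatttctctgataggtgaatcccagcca
HLA-DPB1 (chr6:33075849-33075908, plus strand): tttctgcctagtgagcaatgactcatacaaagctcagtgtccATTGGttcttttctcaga
HLA-DQA1 (chr6:32637296-32637355, plus strand): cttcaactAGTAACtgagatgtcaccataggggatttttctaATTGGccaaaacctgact
HLA-DQB1 (chr6:32666728-32666787, minus strand): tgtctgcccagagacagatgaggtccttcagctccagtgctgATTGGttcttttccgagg
HLA-DMA (chr6:32953159-32953218, minus strand): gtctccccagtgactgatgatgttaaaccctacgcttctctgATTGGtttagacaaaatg
HLA-DMB (chr6:32941065-32941124, minus strand): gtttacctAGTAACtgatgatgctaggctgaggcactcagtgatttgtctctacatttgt

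The order and spacing of an X and a Y box was taken as AGNAAC followed by ATTGG after 20 to 35 bases. Both had to lie on the same strand, whichever it was. This occurred in 2 of the 8 members with a promoter, HLA-DRB1 and HLA-DQA1, and in 237 of all 35116 RefSeq promoters (0.675%). CD74 had AGNAAC at -81 but ATTGG on the opposite strand at -53, so it was not counted. Taken singly, AGNAAC on either strand occurred in 6 of the 8 members and in 42.4% of all promoters, and ATTGG in 7 of the 8 and in 34.6%. HLA-DMA held AGNAAC, and HLA-DMB held ATTGG, only outside the stretch shown. Letters this short are frequent, and a match is a description of the sequence and not a binding site. The word TGATGATG, chosen after the stretches were seen and searched on both strands, stood in the promoters of HLA-DRB1, HLA-DMA and HLA-DMB and in 0.94% of all promoters. Of the 2 members that held the spaced letters on 1 strand, HLA-DRB1 had hardly any reads and HLA-DQA1 had none. CD74, left out only because its letters lie on opposite strands, had a mean of 7821. For HLA-DRB1 and HLA-DQA1, reads lost to alleles that differ from the reference were not tested. Whether the letters bear on the level of a gene was not tested either.

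The labelled cell type was checked against marker genes. Of 10 myeloid and blast markers, 7 had a mean over 1000 normalized counts, up to 44097 for the lysozyme gene LYZ, whereas the progenitor markers CD34 and KIT stood at 19.6 and 0.666 and the monocyte marker CD14 at 2.83. Among B cell markers, MS4A1, PAX5 and CD79B were at 0.33, 0.165 and 0.995, with CD79A at 183. All 3 T cell markers were under 5, and of 5 dendritic cell markers FLT3 and IRF8 exceeded 1000, while CLEC9A had 132, CD1C 14.4 and CLEC10A 9.6. A mean over 1000 was not rare, as a gene at 1006 ranked 6979 among the 32220 genes with reads. The means of all genes sum to 38425214 normalized counts per library. Genes with a single read in a single library share 1 of 6 values of the mean, which give 6 size factors between 0.985 and 1.03, so the libraries were of similar depth. These libraries carry neither a name nor a group here and are lettered A to F in order of size factor. SPINK2, the targeted gene, had a mean of 32.3, from 6 reads in its lowest library to 63 in its highest. Its median of 31 lay in a gap, as no library had between 9 and 53 reads.

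The 10 genes together held 11663 normalized counts per library, or 304 CPM of the sum over all genes. Reads were found for 8 of them. CD74 took 67.1% of the sum, HLA-DPA1 13.9%, HLA-DPB1 7.59%, HLA-DMA 6.88% and HLA-DRA 2.55%. CIITA took 1.61% and HLA-DMB 0.398%. Such a level is that of bulk RNA, in which a few cells with much RNA and many cells with little cannot be told apart. Since it averages over both groups, its spread between replicates cannot be stated.

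CD74 (ENSG00000019582.14), the chaperone of all class II pairs, lies on chromosome 5 from 150401637 to 150412969 (GRCh38, minus strand). Its mean of 7821 normalized counts was higher than that of 97.1% of the 32220 genes with reads. Such percentiles, here and for the other members, are of counts not divided by length and so place a gene by its reads only. They include every gene with even 1 read, which raises them. In the top 25% lay 4 members by this measure, but 1 among protein-coding genes. Per kb of exonic sequence CD74 had 1728 normalized counts, against 318 for HLA-DMA, the next member on that scale. No stretch of 150 bases of its canonical transcript, the read length used, was found in a transcript of another gene.

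HLA-DPA1 (ENSG00000231389.7, chromosome 6 from 33064569 to 33080775, minus strand) and HLA-DPB1 (ENSG00000223865.10, 33075990 to 33089696, plus strand) encode both chains of HLA-DP, and these outer bounds overlap. The RefSeq start used for the HLA-DPA1 promoter lies outside the bounds of HLA-DPB1. HLA-DPA1 and HLA-DPB1 had means of 1623 and 885 normalized counts, above 83.4% and 77.1% of genes with reads. Per kb of exonic sequence the levels were 282 and 169, a ratio of 1.67 (95% interval 1.61 to 1.72, Clopper-Pearson, counting error only). With the canonical transcripts the ratio was 4.29 (4.15 to 4.44), so the choice of length moved it far more than counting error. The exons of both genes overlap by 96 bases, which is 1.67% of the exonic length of HLA-DPA1. HLA-DP was the only classical pair with more than 100 normalized counts for both chains.

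HLA-DRA (ENSG00000204287.13, chromosome 6 from 32439878 to 32445046, plus strand) encodes the nearly invariant alpha chain of HLA-DR. It had a mean of 297 normalized counts, above 69.4% of genes with reads, and 239 per kb. HLA-DRB1 (ENSG00000196126.11, 32577902 to 32589848, minus strand), the main beta chain gene of HLA-DR and one of the most variable human genes, had a mean of 1.83. Its recovered reads in libraries A to F were 3, 3, 0, 2, 2 and 1, which is 11 in all (95% Poisson interval 5.49 to 19.7). The libraries cannot be ordered at so few reads, as the interval of the lowest (0 to 3.69) overlaps that of the highest (0.619 to 8.77). Taking 6 times the mean as reads, HLA-DRB1 made up 0.614% of the reads of the pair (95% Clopper-Pearson interval 0.307 to 1.1), and per kb HLA-DRA was 402 times higher (224 to 805). It was 160 times higher with the canonical transcripts (89.4 to 322) and 170 times with the coding length.

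Among the other genes of the HLA-DR beta family, HLA-DRB3, HLA-DRB4 and HLA-DRB5 encode chains that pair with HLA-DRA. HLA-DRB5 had 1 read in all 6 libraries together, and the pseudogenes HLA-DRB6 and HLA-DRB9 had 2 and 0. HLA-DRB3 and HLA-DRB4 have no row on the primary assembly, and their 3 and 2 rows under other identifiers were at 0. In the reference transcripts no stretch of 150 bases of HLA-DRB1 or HLA-DRB5 was shared with another gene. The alleles of these cells, the placement of reads that differ from the reference and the treatment of reads with several alignments were not tested. All 242 rows with an HLA symbol outside the primary assembly were at 0. Those of HLA-DRA and HLA-DPA1 were too, although both genes had reads on the primary assembly. The zeros of HLA-DRB3 and HLA-DRB4 are therefore no measure of these genes.

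HLA-DQA1 (ENSG00000196735.11, chromosome 6 from 32628179 to 32647062, plus strand) and HLA-DQB1 (ENSG00000179344.16, 32659467 to 32668383, minus strand), the chains of HLA-DQ, were listed at 0, that is with no read in any of the 6 libraries. A count of 0 allows up to 3 reads in all, or a mean of 0.5, which covers counting error only. Their near copies HLA-DQA2 and HLA-DQB2 had 1 read and 0 reads, and HLA-DQB1-AS1, the antisense RNA whose exons cover 241 bases of HLA-DQB1, was at 0 as well. Reads lost to alleles that differ from the reference or to several alignments were not tested here either, so the 0 describes the table and not the RNA of the cells.

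HLA-DMA (ENSG00000204257.14, chromosome 6 from 32948613 to 32969094, minus strand) and HLA-DMB (ENSG00000242574.8, 32934629 to 32941028, minus strand) encode the chains of HLA-DM. HLA-DMA had a mean of 802 and HLA-DMB of 46.4 normalized counts. Per kb this was 318 against 10.1, a ratio of 31.6 (95% Clopper-Pearson interval 28.1 to 35.9, counting error only). The ratio was 45.5 with the longest transcript, 21.3 with the canonical one and 17.4 with the coding length, all outside that interval. The recovered reads of HLA-DMB in libraries A to F were 45, 37, 62, 31, 51 and 54. Library D was lowest and library C highest. No difference between libraries was tested, and with a search 10 times wider 2 sets of reads gave the deposited mean. HLA-DMB shares 438 exonic bases (9.49%) with ENSG00000248993, a gene that also shares 160 bases with HLA-DMA and had a mean of 0.498. Of the 150-base stretches of the canonical HLA-DMB transcript, 24.3% also occur in a transcript of that gene, and reads lost in this way were not tested.

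CIITA (ENSG00000179583.18, chromosome 16 from 10866222 to 10943021, plus strand), the transactivator of all the genes above, had a mean of 188 normalized counts, above 67.2% of genes with reads. Its reads in libraries A to F were 173, 177, 200, 196, 185 and 203, where each library was assumed to lie within 40% of the mean, a limit set after seeing the data. Within that limit 1 set of whole numbers gave the deposited mean, and a limit of 60% left 4 sets, so these reads rest on the assumption that no library stood far from the others. Its exons overlap those of DEXI, on the opposite strand, by 2424 bases and those of ENSG00000280153 by 2378 bases, and these genes had means of 113 and 27.2.

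Read counts of different genes also depend on their lengths, so the members were ordered per kb, and the order depended on which length was used. With the union of all annotated exons the order was CD74 (1728 normalized counts per kb), HLA-DMA (318), HLA-DPA1 (282), HLA-DRA (239), HLA-DPB1 (169), HLA-DMB (10.1), CIITA (8.33) and HLA-DRB1 (0.594). With the canonical transcript HLA-DPA1 (952) stood above HLA-DMA (734), and with the coding length HLA-DPB1 (1143) also did so (1024). CD74 came first and HLA-DRB1 last of the genes with reads by each of the 4 lengths plotted. The same 5 genes had at least 100 normalized counts per kb by each of them.

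**Figure D1:**
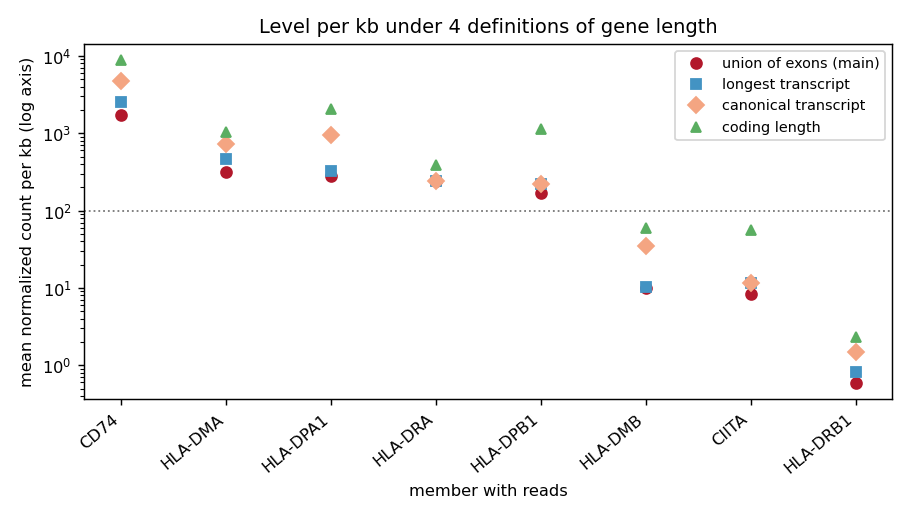
Mean normalized count per kb (log axis) of the 8 members with reads, divided by 4 definitions of gene length. CD74, HLA-DMA, HLA-DPA1, HLA-DRA and HLA-DPB1 lie above the dotted line at 100 per kb by every definition, and HLA-DMB, CIITA and HLA-DRB1 below it.

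From HLA-DRA to HLA-DPB1 the annotation holds 20 protein-coding genes with a row in the table, 8 of them members. Between HLA-DRA at 297 and HLA-DOB at 23.2 normalized counts, the 6 DR and DQ genes in the order of the chromosome had 0.167 (HLA-DRB5), 1.83 (HLA-DRB1), 0 (HLA-DQA1), 0 (HLA-DQB1), 0.161 (HLA-DQA2) and 0 (HLA-DQB2). Past HLA-DOB the peptide transporter genes TAP2 and TAP1 and the immunoproteasome genes PSMB8 and PSMB9, which serve class I presentation, had 2141, 3282, 7144 and 1889. BRD2, a chromatin reader gene beside HLA-DMA, had 12887 and shares 55 exonic bases with it on the opposite strand. These are means per gene and not per length, and the neighbours were taken by position after the members' values were seen. For the DR and DQ genes, reads lost to alleles that differ from the reference or to several alignments were not tested.

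The other genes of the pathway were taken from a list of 26 genes. All 7 genes of the promoter complex that recruits CIITA exceeded 1000 normalized counts, between 1608 for NFYB and 3773 for RFX5, the DNA-binding subunit of RFX. So did 5 genes of the interferon gamma route to CIITA, from 1006 for IRF1 to 4970 for JAK1. A mean over 1000 was not rare in these libraries. IRF1, the lowest of these genes, ranked 6979 among the 32220 genes with reads, above 78.3% of them. Passing 1000 therefore does not set these genes apart from many others. These values are means per gene and not per length, so they give no order between genes.

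HLA-DOA and HLA-DOB, which form the inhibitor of HLA-DM, were low, with means of 11.1 and 23.2. The reads of HLA-DOA ranged from 8 to 14 with a median of 11.5 over the 6 libraries, and those of HLA-DOB from 19 to 33 with a median of 22. Of the 150-base stretches of the canonical HLA-DOB transcript, 30.7% also occur in a transcript of ENSG00000250264, which had a mean of 0.827.

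Among 7 genes of endosomal processing, the proteases CTSD, CTSB and CTSS had means of 11012, 9469 and 3279, and SPPL2A, which cleaves the last membrane stub of CD74, 2679. CTSS is the protease best known for trimming CD74. LGMN, the asparaginyl endopeptidase, had 27.4, IFI30, the lysosomal thiol reductase, 6.47 (39 reads in all), and CTSL was listed at 0. Of the ubiquitin ligases that remove class II from the surface, MARCHF8 had a mean of 1453 and MARCHF1 of 63.4, the latter with 98 recovered reads in library C and 52 to 61 in the others. The wider search made for HLA-DMB was not run for MARCHF1, so its reads are less secure. The costimulatory genes CD40, CD86 and CD80 had 199, 68.8 and 6.8.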

How the data were processed

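Per the labels and the methods, reads were checked with FastQC, aligned to GRCh38 (hg38) with STAR 2.7.11, counted per gene with featureCounts and normalized with DESeq2 1.40.0. The annotation release, strandedness and treatment of reads with several alignments are not given in the sources used here. The authors' deposited value used here is a signal, the mean over 6 libraries of counts divided by size factors. Another 6 columns hold the authors' own comparison of both groups (fold change, its standard error, a statistic, a p-value, an adjusted p-value and an up or down status) and were not used, so no test was made. No column holds a named library. The members and lists were chosen with earlier results of these data known. All members are named, and 2 genes of the lists are not reported here.

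Rows were matched to GENCODE release 44 by identifier (91% of rows), which gave positions and lengths. Each gene's level is its mean per kb of the union of its exons. RefSeq proteins were not used here, so coding length came from GENCODE. Whole reads were recovered for listed genes with a mean under 75. The weights of the 6 libraries are the means shared by 546 to 662 genes with 1 read in 1 library. Every set of 6 whole numbers whose weighted sum equals the deposited mean within its rounding was searched, and a gene counted as recovered with exactly 1 set. Of 100 genes drawn with a mean of 6.5 to 50, 100 had 1 set. For CIITA the search was limited to 40% around the mean. Of 60 genes drawn at its level, 52 had 1 set, 3 had none and 5 had several. These counts do not say whether the 1 set was the true one. The search without such a limit was first tested on simulated data. No molecular identifiers are described, so intervals and floors cover counting error only. The scripts ran in Python 3.11.15 with scipy 1.17.1 for intervals, numpy 2.4.6 and pandas 2.3.3 for tables and matplotlib 3.10.9 for plots.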

Additional observations from a re-analysis of the deposited data

How the results depend on the processing

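No paired analysis was possible because no value could be assigned to a named library, and for the same reason no fit, replicate block or left-out replicate of shSPINK2 against shNEG was run. Of the members, 4 lay in the top 25% of all genes with reads, but 1 when genes with a mean under 10 were left out, 1 among protein-coding genes and 5 per kb. The ratio per kb of HLA-DPA1 to HLA-DPB1 was 1.46 with the longest transcript, 4.29 with the canonical one and 1.82 with the coding length, and that of HLA-DRA to HLA-DRB1 was 160 with the canonical transcript and 170 with the coding length. The share of CD74 was 62.7% per kb. Of 32 further levels per kb, 22 moved beyond counting error with another length. The letters of the X1 and Y boxes were found in 1 member when AGCAAC was required and in 5 anywhere in the window. A search 10 times wider recovered 1 member rather than 2, as HLA-DMB then had several solutions, and for CIITA a limit of 60% gave 4 solutions. Leaving out each library in turn kept the mean of HLA-DMB between 43.3 and 49.5 and of HLA-DRB1 between 1.59 and 2.2. For CIITA the mean stayed between 186 and 190.5. The reads of CIITA were searched only within 40% of its mean, and this limit by itself keeps its left-out means close together. The range for CIITA is therefore no check of how even its libraries were. The alternatives by canonical transcript, coding length, exons outside other genes and the limit for CIITA were chosen after seeing the data, and the coding length from RefSeq proteins was not run.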

Other observations

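The recovered reads of SPINK2 in libraries A to F were 6, 53, 63, 56, 9 and 7, which leaves a gap between 3 libraries with 6 to 9 reads and 3 with 53 to 63. The libraries have no label, so none was assigned to a group from these values, and no other gene was compared between them.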
